A study of Mus musculus with 24 samples.

Results

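The change between day 21 and day 3 of toosendanin dosing was followed in microRNAs (miRNAs) of serum exosomes, the small vesicles that cells release into blood. It was drawn from all arrays titled for toosendanin at these days, 4 from day 21 and 4 from day 3, which are 8 of the 24 arrays in the study. The mice were male BALB/c. They were dosed for 21 or 3 days with 80 mg/kg of toosendanin (TSN), a triterpenoid of Melia trees with known liver toxicity, and serum was drawn a day after the last dose. The other arrays came from TSN mice of day 9 and from vehicle-treated mice of days 3, 9 and 21, with 4 in each group. The labels give neither the age of the mice nor whether a sample is 1 animal or a pool, so the p-values measure only the spread between these samples.

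A miRNA is a short RNA that pairs through its seed, bases 2 to 8, with sites in messenger RNAs and lowers their translation or stability. Many miRNAs come from clusters transcribed as 1 precursor, or from introns of protein genes, and each hairpin can give a 5p and a 3p arm. In blood, miR-122-5p marks hepatocytes, miR-451a and miR-144-3p red cells, miR-223-3p and miR-150-5p white cells, miR-126a-3p endothelium, and miR-1a-3p and miR-133a-3p striated muscle. A lower level in serum exosomes can mean fewer vesicles from a cell type or less of the miRNA in each, and these cannot be told apart here.

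The sequences below are of the miRNAs on which the comparison turns, with the seed in capitals. They were taken from RefSeq (GRCm38.p6) and run from 5′ to 3′.
miR-8093: uUGGGGAGcagagcaugagug
miR-6401: uUACACUCcaguggugucgggu
miR-1306-3p: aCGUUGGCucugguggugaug
miR-30a-5p: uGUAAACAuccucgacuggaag
miR-30e-5p: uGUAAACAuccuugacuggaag
miR-30c-5p: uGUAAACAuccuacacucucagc
miR-208a-5p: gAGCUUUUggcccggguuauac
miR-542-5p: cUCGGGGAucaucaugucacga
miR-106b-5p: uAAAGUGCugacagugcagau
They are those of the 9 miRNAs, listed further on, that were called in each choice of arrays fitted and on leaving out each of the 8 arrays, and that have a RefSeq sequence, with miR-30c-5p, a family member that did not pass, and miR-106b-5p, which the title of the series names. miR-30a-5p, miR-30e-5p and miR-30c-5p share the seed GUAAACA, and no other 2 of those shown share one. Counted from the 5′ end, miR-30a-5p and miR-30e-5p are identical at 21 of 22 bases and differ by C13U. Over the same 22 bases miR-30c-5p differs from miR-30a-5p at 5, which are C13A, G14C, G18C, G19U and A20C. In that annotation miR-1306-3p lies on chromosome 16 at 18284248 to 18284268 on the minus strand, within the span of Dgcr8, and miR-208a-5p lies on chromosome 14 at 54949107 to 54949128 on the minus strand, within Myh6. The coordinates of miR-8093 are chromosome 2, 32687706 to 32687726, on the minus strand within Fpgs, and those of miR-542-5p are chromosome X, 53049453 to 53049474, on the minus strand.

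Levels are log2 values of the array signal divided by the 75th percentile of that array, so that 0 is the level of the 75th percentile. Values below a floor of -6.21 were set to it and have no order. Of 1881 miRNAs on the array, 444 were well above background on every array of at least 1 group and were tested, and 372 were so on all 8 arrays compared here. A miRNA was called where its adjusted p in limma, after Benjamini-Hochberg correction over the 444, was under 0.05. The day 21 arrays lay on slide 4 with those of day 9, and the day 3 arrays lay alone on slide 3, so slide and day cannot be told apart in the main comparison. The same holds for TSN day 9 against day 3. TSN day 21 against TSN day 9 lies within 1 slide, and its values are set beside the main ones for the miRNAs described. In that comparison limma called 43.5% of the tested miRNAs and in TSN day 9 against day 3 it called 34.9%; both share arrays with the main one.

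Few miRNAs in the serum exosomes of TSN mice differed between the days. Of 444 tested, 31 were called (6.98%), 20 of them higher (4.5%) and 11 lower (2.48%) at day 21, and 90 had an unadjusted p under 0.05. Differences were small: 367 of the 444 lay under 0.5 in size on the log2 scale and 10 reached 1. The highest rises were those of miR-8093, miR-6401 and miR-1957a, which were 2.89-fold, 2.53-fold and 2.49-fold higher, and the deepest fall was that of the cardiac miR-208a-5p, which was 3.35-fold lower at day 21. Other scalings of the arrays moved the split of 20 higher and 11 lower to between 5 and 5 with the total gene signal and 25 and 5 with the percentile taken over probes of the 8 arrays. Without any scaling it was 16 and 2, with labelling spike-ins 10 and 3, and with the percentile over all probes 9 and 8. The normexp background correction left 0 higher and 1 lower, miR-208a-5p, with 35 at an unadjusted p under 0.05.

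**Figure D1:**
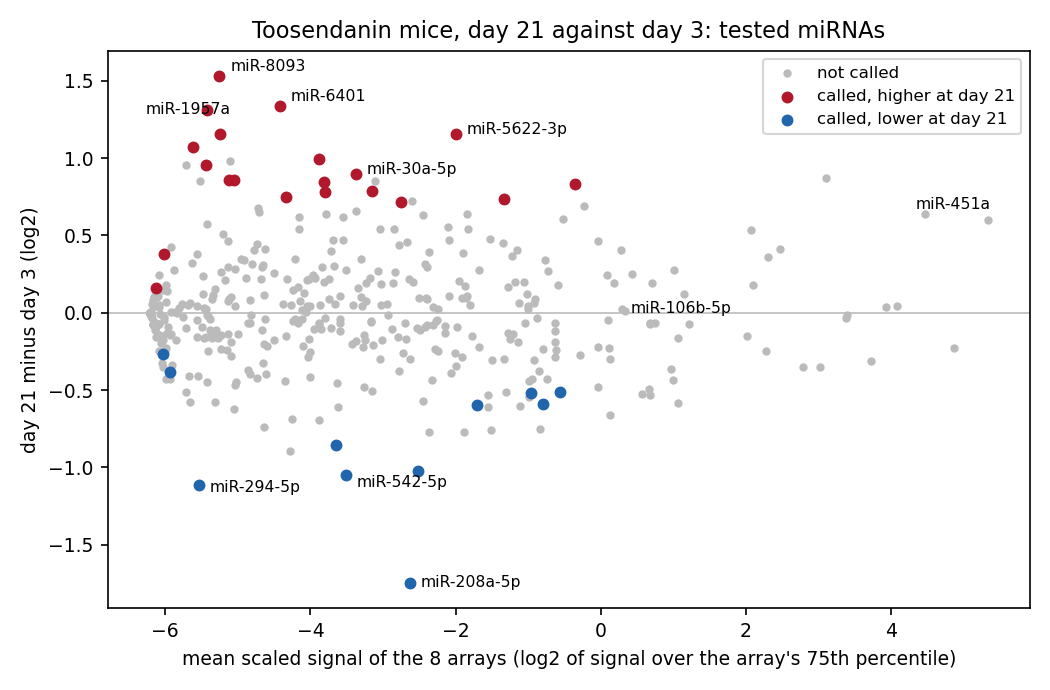
The plot sets each of the 444 tested miRNAs by its mean scaled signal over the 8 arrays (x axis, log2) and its day 21 minus day 3 difference in TSN mice (y axis, log2). Red points are the 20 called higher, blue points the 11 called lower, and grey points were not called; miR-8093 is at the top and miR-208a-5p at the bottom.

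The calls were also counted with fewer arrays in the fit, which lowers the residual degrees of freedom for every miRNA as well. The fit used all 24 arrays. Some miRNAs were at the floor on all 12 vehicle arrays, so that those arrays showed no spread. This held for 34 of all 444 tested and for 9 of the 31 called. Of these 9, 1 was called in a limma fit over the 12 TSN arrays and 0 in one over the 8 arrays compared here, against 14 and 13 of the 22 others. When the 8 arrays were also scaled and filtered by themselves, 6 of the 9 were called, against 16 of the 22. A set of 13 (11 higher, 2 lower) was called in all of these fits. Of the 13, 9 also stayed called on leaving out each of the 8 arrays in turn. The 9 were miR-8093, miR-6401, miR-1957a, miR-1306-3p, miR-30a-5p, miR-30d-5p and miR-30e-5p among those higher, and miR-208a-5p and miR-542-5p among those lower. Among all 31, 12 kept the call on leaving out each array and 19 lost it at least once, and the count over all miRNAs ran from 13, without replicate 1 of day 21, to 38, without replicate 3 of day 3. Without replicate 3 or 4 of day 21, or replicate 1 of day 3, it was 14, 19 and 16.

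Measures of the arrays as a whole were also set side by side. Per array, 471, 435, 469 and 464 miRNAs were well above background at day 21, against 461, 379, 435 and 460 at day 3 (means 460 ± 16.8 and 434 ± 38.4, SD, n = 4 each; exact two-sided permutation p = 0.2). The unscaled 75th percentile was 1.24-fold higher at day 21 (exact permutation p = 0.343). The labelling spike-ins, RNA added in equal amounts to each sample, were 1.22-fold higher, with no overlap between the groups (exact permutation p = 0.0286, the smallest that 70 allocations can give; adjusted p = 0.0714 over 5 measures). The hybridisation spike-ins were 1.06-fold higher, also without overlap (exact permutation p = 0.0286, adjusted p = 0.0714). Over the 372 miRNAs measured on all 8 arrays, 1 day 21 array and 1 day 3 array differed by a median of 0.31 on the log2 scale (0.24 to 0.40 over 16 pairs), against 0.22 between arrays of day 21 and 0.33 between arrays of day 3. The day 9 arrays lay farther from both, at 0.56 from day 21 and 0.49 from day 3.

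Among the miRNAs that rose, miR-8093, a late entry of the miRNA catalogue with no function that is well known, had the highest difference. Its scaled log2 level was -4.75, -4.58, -4.51 and -4.12 on the day 21 arrays, against -6.21, -5.47, -6.21 and -6.20 on the day 3 arrays. All day 21 arrays lay above all day 3 arrays, where 2 of 4 were at the floor. The difference was 1.53 (SE 0.21, 2.89-fold, limma adjusted p = 9.4e-05), and since the floor stood in for 2 day 3 values it understates the gap. Before scaling, its signal was 65.2, 45.4, 65.7 and 77.0 at day 21, against 19.9, 16.6, 12.3 and 17.5 at day 3, and it was well above background on all 8. Within slide 4, day 21 exceeded day 9 by 1.51 (adjusted p = 3.69e-05), while day 9 and day 3 differed by 0.02.

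The level of miR-6401 was -3.67, -4.28, -3.67 and -3.38 at day 21, against -4.67, -5.17, -5.50 and -5.01 at day 3, with none at the floor. These groups did not overlap either, and the difference was 1.34 (SE 0.24, 2.53-fold, limma adjusted p = 0.00114). miR-1957a was at -5.03, -4.79, -4.91 and -4.34 at day 21, against -6.21, -5.70, -6.21 and -6.21 at day 3, a difference of 1.31 (SE 0.18, adjusted p = 9.4e-05) with 3 day 3 arrays at the floor. Both were also above day 9 on the same slide, by 1.49 and 1.14. miR-1306-3p comes from the gene of DGCR8, the RNA-binding partner of Drosha that cuts miRNA precursors in the nucleus. It was at -4.54, -5.03, -4.84 and -4.25 at day 21, against -6.03, -5.75, -5.73 and -5.79 at day 3. The rise was 1.16 (SE 0.22, 2.23-fold, limma adjusted p = 0.00158), with 1.28 over day 9 within the slide. In the authors' deposited values it was smaller, 0.50 (adjusted p = 0.0829).

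miR-5622-3p, within the span of Tpx2, was the brightest of the miRNAs that more than doubled. It was at -1.32, -1.70, -1.69 and -0.97 at day 21, against -2.97, -2.45, -2.44 and -2.45 at day 3. Replicate 1 of day 3 lay below the other day 3 arrays, which were close together, and no day 3 array reached a day 21 value. The difference was 1.16 (SE 0.28, limma adjusted p = 0.0184), and it was lost without replicate 1 of day 3 (1.03, adjusted p = 0.0643), replicate 1 of day 21 (1.12, 0.0552) or replicate 4 of day 21 (1.01, 0.0705). It was 1.34 above day 9 on the same slide.

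**Figure D2:**
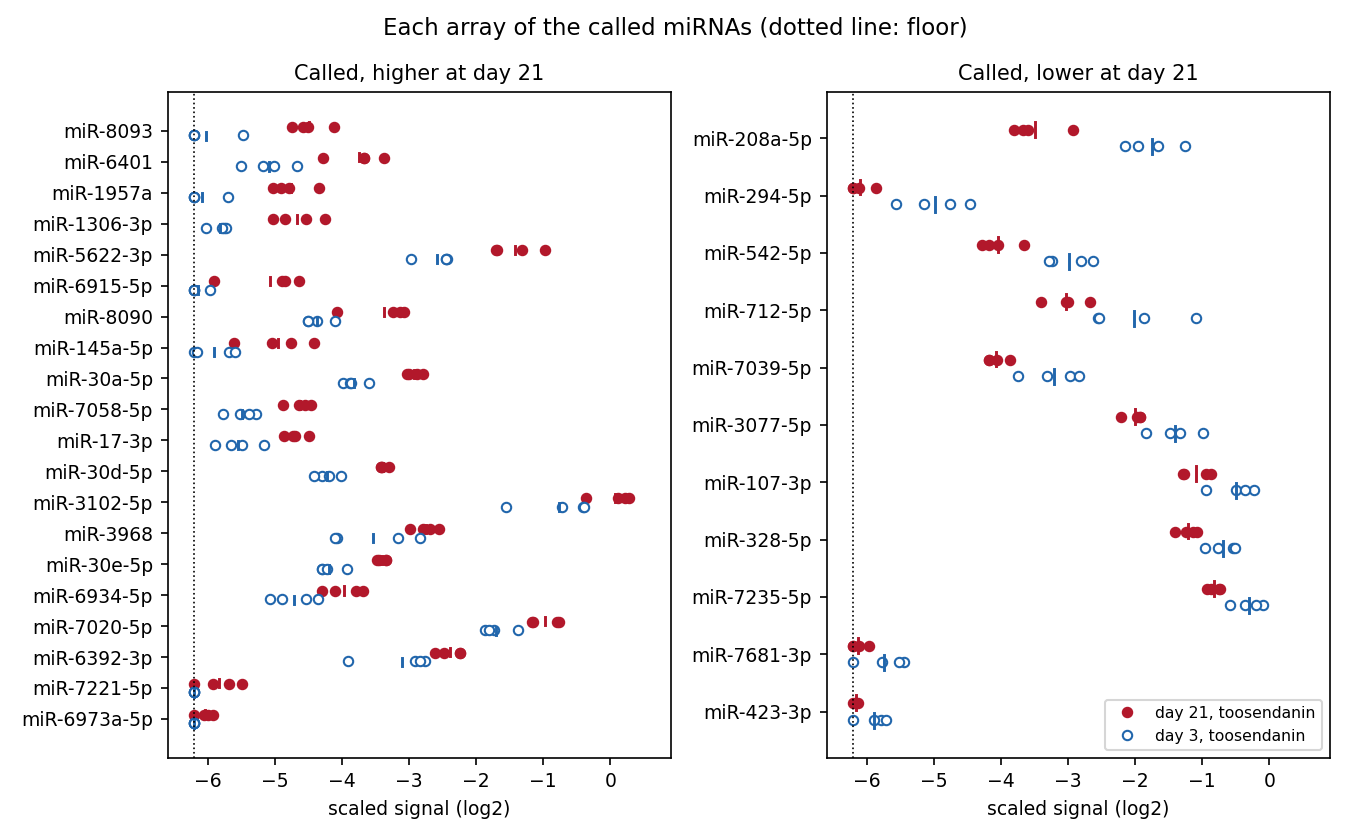
Each point is 1 array, placed by its scaled signal (x axis, log2), for the 31 called miRNAs, with filled points for day 21 and open points for day 3, a tick at each group mean and a dotted line at the floor of -6.21. Of the 31, 24 showed no overlap between the groups (16 higher and 8 lower), and several day 3 values of the dim miRNAs stood at the floor.

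Of the 20 miRNAs that rose, 16 had groups that did not overlap. In either direction this held for 24 of the 31 called, beside 50 of all 444 tested (11.3%). The calls came from the same values, so their share follows in part from the calling. miR-6915-5p rose by 1.07 (SE 0.18, limma adjusted p = 0.000704), with 3 of 4 day 3 arrays at the floor and 3 of 4 well above background. The others not yet described ran from 0.72 for miR-6392-3p to 0.99 for miR-8090, apart from miR-7221-5p and miR-6973a-5p. These were at 1.30-fold and 1.12-fold, with all 4 day 3 arrays at the floor and with 2 and 3 of them well above background. The floor stood in for every day 3 value, so their size and rank depend on it. With the floor halved, miR-7221-5p and miR-6973a-5p were at 0.88 and 0.26. Both, with miR-6915-5p, miR-8090, miR-145a-5p, miR-3968 and miR-6934-5p, are among the 9 at the floor on every vehicle array. miR-7020-5p, miR-6392-3p, miR-3968, miR-6934-5p, miR-7221-5p and miR-6973a-5p were named after their values were seen. miR-7058-5p (0.86, SE 0.23, limma adjusted p = 0.0304) and miR-7020-5p (0.73, SE 0.18, adjusted p = 0.02) were called in all 4 fits. Each lost the call on leaving out 4 of the 8 arrays in turn, up to an adjusted p of 0.0898 and 0.0705, and each was above day 9 on the same slide, by 1.19 and 1.17.

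The miR-30 family, whose members share a seed and are abundant in epithelial tissues and heart, held 3 of the calls. Of its 5 tested members 3 were called and all 3 were higher, with a median difference of 0.78 over the 5, beside 6.98% called and a median of 0.00 over all 444. miR-30a-5p was at -2.79, -2.89, -3.00 and -3.04 at day 21, against -3.98, -3.59, -3.88 and -3.86 at day 3. miR-30d-5p was at -3.40, -3.30, -3.42 and -3.42 at day 21, against -4.31, -4.01, -4.19 and -4.41 at day 3. The levels of miR-30e-5p were -3.45, -3.35, -3.35 and -3.48 at day 21, against -4.30, -3.93, -4.30 and -4.23 at day 3. In each of the 3 every day 21 array lay above every day 3 array, and the day 21 arrays of miR-30d-5p and miR-30e-5p lay close together.

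Their differences were 0.90 (SE 0.13, 1.86-fold, limma adjusted p = 0.000211), 0.85 (SE 0.10, 1.80-fold, adjusted p = 4.9e-05) and 0.78 (SE 0.15, 1.72-fold, adjusted p = 0.00199) for miR-30a-5p, miR-30d-5p and miR-30e-5p in that order. The other 2 members did not pass. miR-30b-5p was at -1.96, -2.12, -2.55 and -2.82 at day 21, against -2.55, -2.92, -1.91 and -2.47 at day 3 (0.10, adjusted p = 0.872), and its groups overlapped widely. miR-30c-5p was at -2.83, -2.74, -3.27 and -3.16 at day 21, against -3.17, -3.03, -2.93 and -3.08 at day 3 (0.05, adjusted p = 0.949). No scaling tried turned the family's median below 0, but the calls did depend on it. In limma the 3 differences were 0.85, 0.80 and 0.74 with the percentile over all probes (adjusted p = 0.187, 0.187 and 0.204), 0.94, 0.89 and 0.83 with no scaling (adjusted p = 0.237, 0.227 and 0.237), and 0.70, 0.58 and 0.55 with normexp (adjusted p = 0.461, 0.739 and 0.867). With quantile normalization miR-30d-5p and miR-30e-5p were at 0.65 and 0.57 (adjusted p = 0.553 and 0.642). miR-30a-5p and miR-30e-5p also lost the call with the authors' deposited values (adjusted p = 0.0749 and 0.0583) and the total gene signal (0.653 and 0.206), and miR-30e-5p with labelling spike-ins (0.0948). Of the family's other arms, miR-30c-1-3p was well above background on 4 of 4 arrays at each day, with 0 at the floor. It was not called, with a difference of 0.002 (SE 0.13). miR-30a-3p was at the floor on 2 day 21 arrays and 4 day 3 arrays (0.10, limma adjusted p = 0.741). miR-30e-3p was well above background on 4 of 4 day 21 arrays and on 0 of 4 day 3 arrays, but at the floor on all 8, so that no fold change was drawn, and it was named after its values were seen.

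The miR-30 members were higher at day 21 in vehicle mice too. miR-30a-5p was at -2.77, -2.54, -2.50 and -2.49 in vehicle mice of day 21, against -3.16, -3.26, -2.90 and -3.32 in vehicle mice of day 3, and miR-30d-5p at -2.81, -2.81, -2.84 and -2.84 against -3.66, -3.37, -3.44 and -3.45. In these arrays too the days did not overlap. The vehicle differences were 0.59, 0.66 and 0.78 for miR-30a-5p, miR-30d-5p and miR-30e-5p (limma adjusted p = 0.00405, 0.000316 and 0.00161), beside 0.90, 0.85 and 0.78 in TSN mice. The TSN difference minus the vehicle difference was 0.31 (limma adjusted p = 0.307), 0.19 (adjusted p = 0.458) and 0.00 (adjusted p = 1), so no departure from the vehicle change was called. miR-30b-5p and miR-30c-5p rose in vehicle mice, by 0.86 and 0.67 (adjusted p = 0.00405 and 0.00331), and were not called in TSN mice. The difference between the arms was -0.76 and -0.62 and missed the threshold (adjusted p = 0.0713 and 0.0543).

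**Figure D3:**
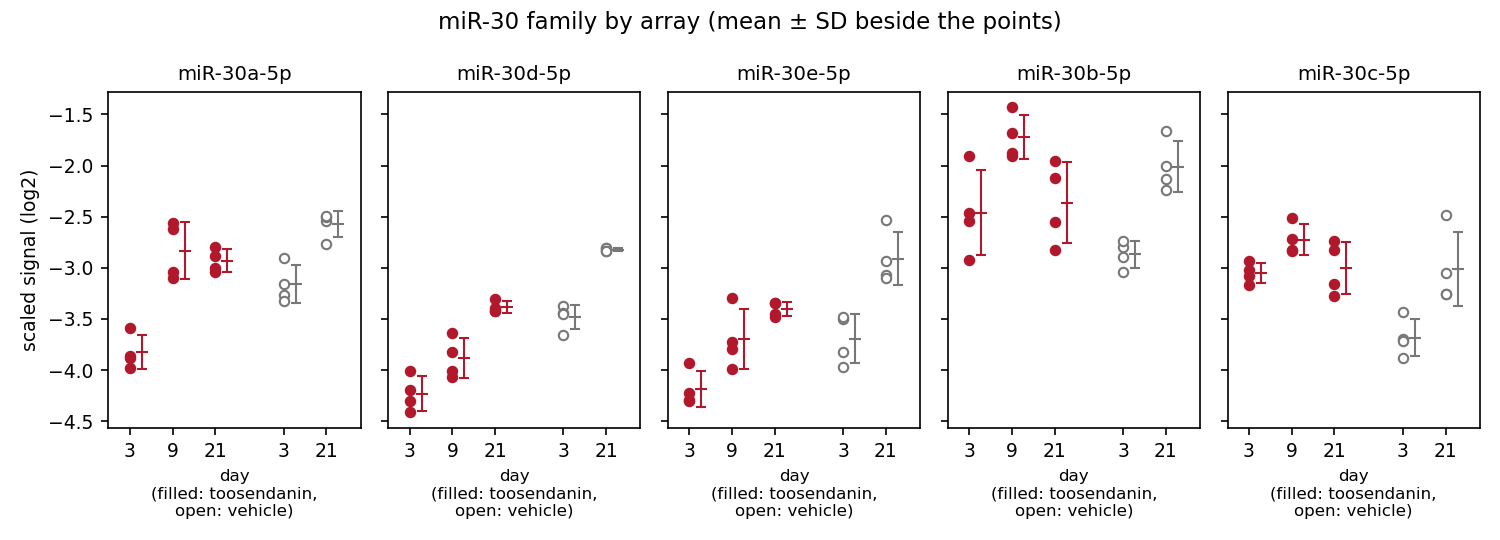
Each panel shows 1 miR-30 family member, with the scaled signal of each array (y axis, log2) by day, filled red for TSN at days 3, 9 and 21 and open for vehicle at days 3 and 21; the bar beside the points is the mean ± SD of 4 arrays. In TSN mice miR-30a-5p, miR-30d-5p and miR-30e-5p at day 21 lie clear of day 3, miR-30b-5p and miR-30c-5p overlap, and all 5 are higher at day 21 in vehicle mice.

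At day 9, which lay on another slide than day 3, miR-30a-5p was above its day 3 level. Its day 9 levels were -3.10, -2.56, -3.04 and -2.62, above day 3 by 0.99 (limma adjusted p = 2.81e-05) and apart from day 21 on the same slide by -0.10 (adjusted p = 0.619). miR-30d-5p was above day 3 by 0.35 at day 9 (adjusted p = 0.0126), and day 21 was above day 9 by a further 0.50 (adjusted p = 0.000776). miR-30e-5p took values between, with 0.49 from day 3 to day 9 (adjusted p = 0.0153) and 0.29 from day 9 to day 21 (adjusted p = 0.118).

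miR-17-3p is the passenger arm of the miR-17 hairpin in the miR-17-92 cluster, which drives growth in many cell types. It was at -4.73, -4.49, -4.87 and -4.69 at day 21, against -5.89, -5.49, -5.17 and -5.65 at day 3 (0.86, SE 0.25, limma adjusted p = 0.0456). The groups did not overlap, but the call was lost without any 1 of 7 of the 8 arrays, up to an adjusted p of 0.141. Its partner arm and cluster neighbours did not follow it. The differences were 0.28 for miR-17-5p, 0.40 for miR-18a-5p, -0.25 for miR-19a-3p, 0.20 for miR-20a-5p, -0.19 for miR-19b-3p and -0.53 for miR-92a-3p, none of them called (adjusted p from 0.0796 to 0.638). Without replicate 2 of day 3, miR-92a-3p was called lower (-0.65, limma adjusted p = 0.0407). In vehicle mice miR-17-3p was 1.16 higher at day 21 (adjusted p = 0.00331).

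miR-145a-5p, a miRNA of vascular smooth muscle, was at -4.42, -4.76, -5.04 and -5.60 at day 21, against -6.21, -5.68, -5.60 and -6.17 at day 3. Day 21 replicate 4 and day 3 replicate 3 met, so these groups did not stand fully apart. The difference was 0.96 (SE 0.17, 1.94-fold, limma adjusted p = 0.00113), with adjusted p = 0.052 in the fit over the TSN arrays and 0.134 in the fit over the 8. Its cluster partner miR-143-3p was at -2.72, -2.90, -3.46 and -3.90 at day 21, against -4.84, -3.61, -3.49 and -3.52 at day 3 (0.62, SE 0.32, adjusted p = 0.281). In both miRNAs day 21 replicates 1 and 2 were the highest of the 8 arrays.

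The deepest fall was in miR-208a-5p, the 5p arm of a miRNA encoded in an intron of the cardiac myosin gene Myh6 and made in heart muscle. It was at -3.81, -2.92, -3.67 and -3.60 at day 21, against -1.66, -1.25, -2.16 and -1.96 at day 3. Every day 21 array lay below every day 3 array. The difference was -1.75 (SE 0.30, limma adjusted p = 0.000798), and before scaling the signal was 124.7, 143.3, 117.6 and 110.5 at day 21, against 487.8, 309.6, 251.3 and 331.1 at day 3. At day 9 the levels were -3.41, -3.66, -2.99 and -3.90, a difference of -1.73 from day 3 (limma adjusted p = 0.000221). Day 21 and day 9 on the same slide differed by -0.01. Day 3 lay on another slide, so slide and day cannot be told apart in the step from day 3 to day 9 either. In vehicle mice the difference was -0.62 (adjusted p = 0.15), and the TSN difference minus the vehicle one was -1.12 (adjusted p = 0.0791). Other miRNAs of striated muscle, miR-1a-3p, miR-133a-3p, miR-133b-3p and miR-378a-3p, did not pass, with differences of -0.14, -0.58, -0.89 and 0.72 (adjusted p from 0.395 to 0.954). The other arm, miR-208a-3p, and the cardiac miR-208b-3p and miR-499-5p were not tested, each being well above background on 0 of the 8 arrays. At day 9 miR-1a-3p, miR-133a-3p and miR-133b-3p were far higher, and day 21 lay below day 9 by log2 differences of -3.07, -4.71 and -5.23 on the same slide (adjusted p = 4.39e-05, 5.12e-06 and 5.12e-06). miR-208a-5p kept its call under 17 of 18 other settings, lost it with no scaling (-1.70, adjusted p = 0.131) and was the miRNA still called with normexp.

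miR-542-5p, from the X-linked cluster that also holds miR-322 and miR-503, fell as well. It was at -3.65, -4.28, -4.18 and -4.04 at day 21, against -2.80, -3.25, -3.29 and -2.63 at day 3, with no overlap. The difference was -1.05 (SE 0.20, 2.07-fold lower, limma adjusted p = 0.00199), and within the slide day 21 was below day 9 with a log2 difference of -0.56 (adjusted p = 0.0298). miR-542-5p kept its call under 13 of 18 other settings. It did not hold in the authors' deposited values, where the difference was -0.04 (limma adjusted p = 0.874). The call was also lost with no scaling (adjusted p = 0.195), labelling spike-ins (0.0783), normexp (0.455) and the total gene signal (0.617). Its neighbour miR-322-5p was at -0.48 (adjusted p = 0.126).

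miR-294-5p belongs to the miR-290-295 cluster of embryonic stem cells. It was at -6.21, -5.86, -6.21 and -6.11 at day 21, against -4.76, -4.46, -5.57 and -5.14 at day 3, and 2 day 21 arrays were at the floor. The groups did not overlap, and the difference was -1.11 (SE 0.27, limma adjusted p = 0.0184), lost without replicate 1 of day 3 (-1.04, adjusted p = 0.0611) or replicate 1 or 3 of day 21 (-1.07 each, 0.0552 and 0.0583). Its tested neighbours miR-290a-5p and miR-292a-5p were at -0.28 and -0.16 and were not called. miR-291b-5p was at the floor on all 8 arrays and was called lower (-0.74, adjusted p = 0.0277) when the 8 arrays were processed by themselves. For miR-294-5p day 9, on the slide of day 21, was below day 3 by a log2 difference of -1.15 (limma adjusted p = 0.0026). Its day 21 and day 9 levels differed by 0.04.

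miR-712-5p, which in the mouse is cut from the spacer of the ribosomal RNA precursor, was at -3.41, -2.68, -3.04 and -3.01 at day 21, against -1.87, -1.09, -2.55 and -2.54 at day 3. The highest day 21 array lay just under the lowest day 3 array. The difference was -1.02 (SE 0.28, limma adjusted p = 0.0312). It was lower still at day 9, so that day 21 was above day 9 by 0.94 on the same slide (adjusted p = 0.0104), and with the software's total gene signal it turned to 0.14. Leaving out any of 5 of the 8 arrays ended the call, without replicate 2 of day 3 at -0.71 (adjusted p = 0.0919).

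The other 7 that fell were smaller changes. miR-7039-5p, miR-3077-5p, miR-328-5p and miR-7235-5p did not overlap between the groups and differed by -0.86, -0.59, -0.52 and -0.51 (limma adjusted p = 0.0312, 0.0427, 0.0304 and 0.0456). Each of these 4 was higher at day 21 than at day 9 in the same slide, by 0.51, 0.26, 0.25 and 0.30, none of which was called. miR-107-3p, within the span of the pantothenate kinase gene Pank1, was at -0.95, -0.88, -1.29 and -1.28 at day 21, against -0.50, -0.94, -0.22 and -0.36 at day 3 (-0.59, SE 0.16, adjusted p = 0.0304). Day 3 replicate 2 lay among the day 21 arrays, and the call was lost without any 1 of 6 of the arrays, up to an adjusted p of 0.104. Its relative miR-103-3p is identical at 22 of 23 bases, with G22C as the difference counted from miR-103-3p, and was at -0.07 (adjusted p = 0.954). miR-107-3p, miR-423-3p (-0.27) and miR-7681-3p (-0.38), the last 2 close to the floor, were named after their values were seen.

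miR-106b-5p, the miRNA in the title of the series, was not called between the days. It was at 0.54, 0.36, 0.00 and 0.30 at day 21, against 0.45, -0.04, 0.10 and 0.58 at day 3, well above background on all 8 arrays and with full overlap. The difference was 0.03 (SE 0.19, limma adjusted p = 1), and it took both signs as single arrays were left out, from -0.08 to 0.13. Day 9 on the slide of day 21 was higher, at 1.51, 1.59, 1.13 and 1.31. Among relatives with its seed AAAGUGC, miR-17-5p, miR-20a-5p, miR-20b-5p and miR-93-5p were likewise not called, and the 5 ran from 0.03 to 0.28.

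Marker miRNAs of liver, blood and vessel cells held 1 call between the days, and medians near 0. None of the 7 tested liver-enriched miRNAs was called by limma, and 0 had an unadjusted p under 0.05. miR-122-5p was at -3.50, -3.05, -2.86 and -3.37 at day 21, against -3.44, -3.62, -1.59 and -3.91 at day 3, a difference of -0.05 (adjusted p = 1) with day 3 replicate 3 above all others. The list's median was -0.05, and its sign turned under 5 of 10 other scalings and signal choices. Of 6 red cell miRNAs none was called, with 1 under an unadjusted p of 0.05, and the median was -0.07. That one was miR-451a, at 5.82, 5.77, 5.21 and 5.73 at day 21, against 5.11, 5.07, 4.59 and 5.36 at day 3 (0.60, SE 0.23, adjusted p = 0.13), while miR-144-3p was at -0.07. miR-451a was called with the 8 arrays processed by themselves (0.69, adjusted p = 0.0423) and with the authors' deposited values (0.82, adjusted p = 0.038).

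Among 10 leukocyte miRNAs 5 had an unadjusted p under 0.05 and none was called by limma. miR-150-5p, of lymphocytes, was the highest of them at 0.85 (adjusted p = 0.0683), and miR-29a-3p and miR-15a-5p were at -0.44 and -0.52 (adjusted p = 0.0778 and 0.132). miR-150-5p was called with the 8 arrays processed by themselves (0.94, adjusted p = 0.0342), among miRNAs well above background on all 8 arrays only (adjusted p = 0.0439), and without replicate 3 of day 3 (0.0321) or replicate 4 of day 21 (0.0465). Without replicate 2 of day 3, miR-29a-3p and miR-15a-5p were called lower (-0.54 and -0.72, adjusted p = 0.0367 and 0.0347). Of 8 platelet miRNAs, 0 passed with or without adjustment in limma, with a median of -0.14. The 9 vascular miRNAs held 1 call, miR-145a-5p, and miR-126a-3p was at 0.09 (adjusted p = 0.872). Of 8 miRNAs linked to stellate cells and fibrosis, 1 had an unadjusted p under 0.05 and none was called, with miR-21a-5p at -0.35 and miR-199a-3p at 0.30. Red cell, platelet and leukocyte miRNAs had medians from -0.17 to -0.07, beside 0.00 over all tested, and their part in the changes of other miRNAs was not tested.

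**Figure D4:**
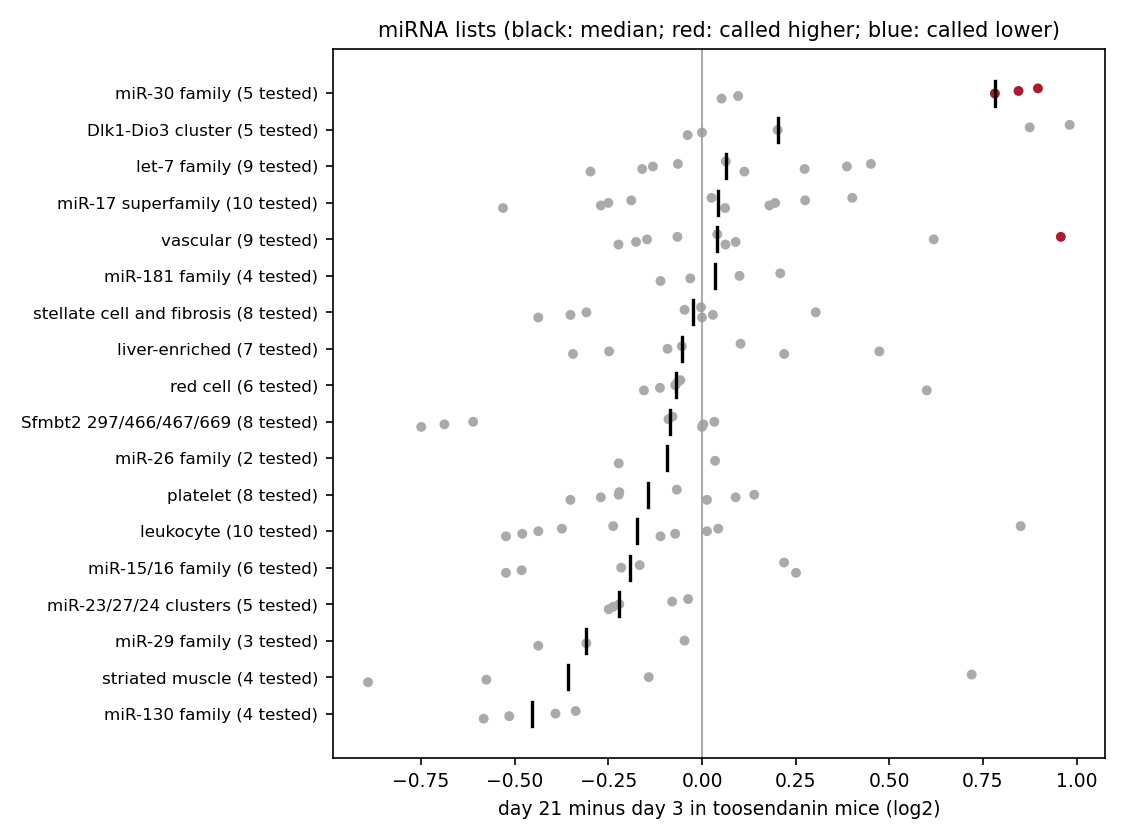
Each row of points is 1 list of miRNAs, each point 1 tested member placed by its day 21 minus day 3 difference in TSN mice (x axis, log2), with a black bar at the list's median, red for called higher and grey for not called. The miR-30 family has the highest median, 0.78, and the miR-130 family the lowest, -0.45.

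The other families held no call in the fit over 24 arrays. The 4 tested members of the miR-130 family had the lowest median, -0.45, and ran from -0.58 for miR-130a-3p (SE 0.20, limma adjusted p = 0.0796) to -0.34 for miR-301b-3p. None of the 4 was called by limma and 3 had an unadjusted p under 0.05. Without replicate 2 of day 3, miR-130a-3p and miR-130b-3p were called lower (-0.71 and -0.63, adjusted p = 0.0407 and 0.0371). Medians were 0.06 over 9 let-7 miRNAs, -0.19 over 6 of the miR-15/16 family, -0.31 over 3 of the miR-29 family and -0.22 over 5 of the miR-23/27/24 clusters, with no call in any. With the 8 arrays processed by themselves let-7g-5p (0.54, adjusted p = 0.0342) and miR-181c-5p (0.62, adjusted p = 0.0423) were called higher, and miR-181c-5p also with quantile normalization (0.28, 0.0117) and no scaling (0.46, 6.75e-05). When tested miRNAs were grouped by the seed of their RefSeq sequence, 10 seeds had at least 3 members. GUAAACA, with miR-30a-5p, miR-30c-5p and miR-30e-5p only, had the highest median (0.78). AGUGCAA, with miR-130a-3p, miR-130b-3p, miR-301a-3p and miR-721, had the lowest (-0.45). Most of these values are those of the lists above, so the ranking by seed is not independent of them. In the imprinted Dlk1-Dio3 cluster miR-300-5p and miR-494-3p stood at 0.98 and 0.87 without overlap between the groups, and neither was called (adjusted p = 0.0585 and 0.0772). Both were called with the 8 arrays processed by themselves (1.14 and 0.96, adjusted p = 0.00661 and 0.0419), and miR-300-5p in the fit over the 12 TSN arrays (0.017). With the total gene signal miR-300-5p was called in the opposite direction (-3.50, adjusted p = 0.000877). Of the 198 tested entries numbered 3000 and above, 13 rose and 4 fell, 8.59% beside 6.98% of all tested.

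The called miRNAs were also set against the same days in vehicle mice, whose arrays give none of the TSN levels but shared in the scaling, the floor and the estimate of spread. The 2 vehicle days lay on 2 other slides with different scan dates, so slide and day cannot be told apart there either. These arrays were dimmer, with 184 to 351 miRNAs well above background on each, against 379 to 471 on the 8 TSN arrays. Their unscaled 75th percentile ran from 81.4 to 609, against 737 to 1748. Between vehicle day 21 and vehicle day 3, 101 miRNAs were called (22.7%), 75 higher (16.9%) and 26 lower (5.86%). The split was 81 and 1 with the percentile over all probes, 61 and 45 with that over probes of the 8 TSN arrays, 39 and 6 with the total gene signal and 38 and 5 with labelling spike-ins. Of the 31 called in TSN mice 8 were called there, beside 22.7% of all tested. Of the 22 not at the floor on every vehicle array, 11 of 13 that rose and 8 of 9 that fell had a vehicle difference of the same sign. The share of all tested miRNAs with the same sign was not counted, so these counts give no measure of likeness between the arms. Over the 167 miRNAs detected above background on each of these 16 arrays, the 2 sets of differences had a Spearman correlation of -0.05, a description across miRNAs that share arrays. miR-328-5p had close values in both arms, with -0.52 in TSN mice and -0.51 in vehicle mice, and miR-7039-5p and miR-712-5p were close too, at -0.86 and -1.02 beside -0.77 and -0.80.

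**Figure D5:**
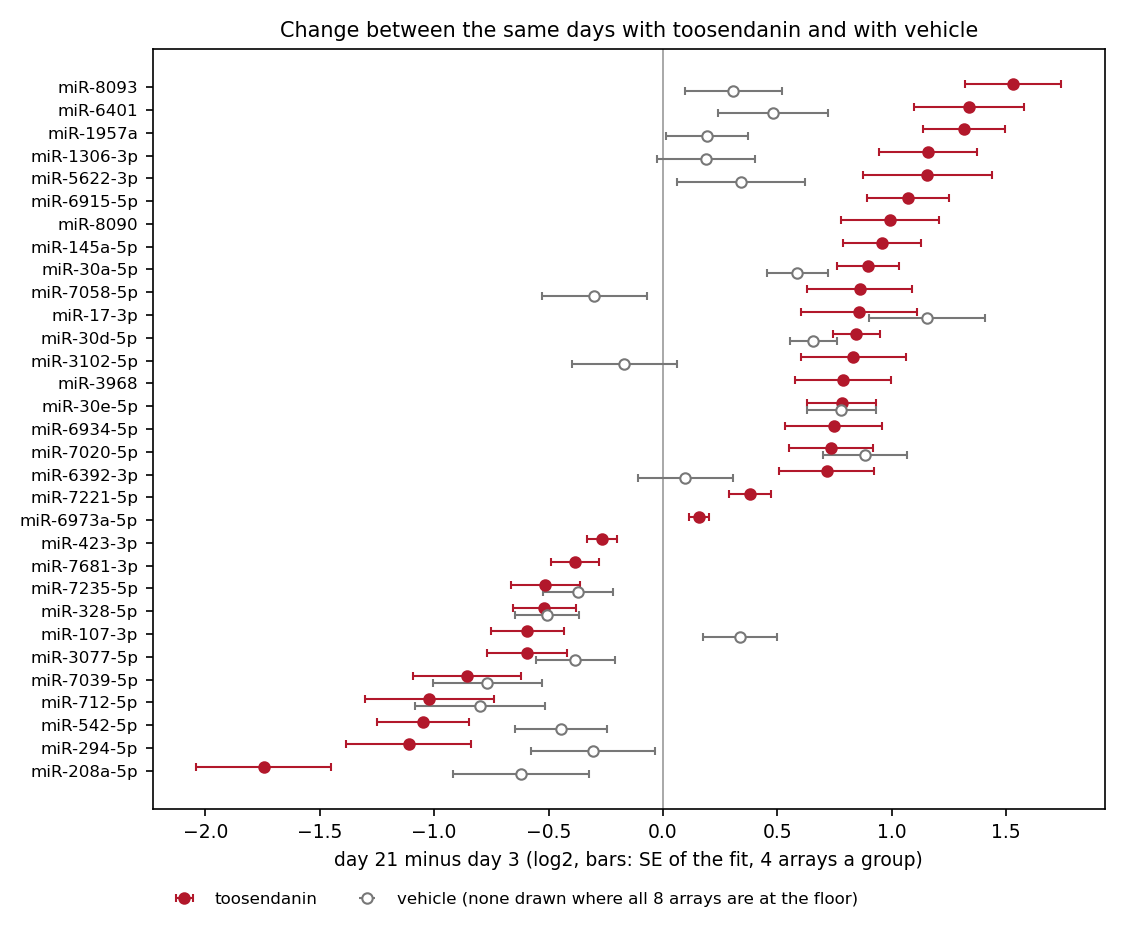
For each of the 31 called miRNAs the red point is the day 21 minus day 3 difference in TSN mice and the open point that in vehicle mice (x axis, log2), with bars of 1 SE from the fit and 4 arrays per group; no open point is drawn where all 8 vehicle arrays were at the floor. miR-30e-5p and miR-328-5p have nearly the same difference in both arms, and miR-107-3p, miR-7058-5p and miR-3102-5p differ in sign, miR-7058-5p with 1 of 4 vehicle arrays well above background at each day.

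The TSN difference minus the vehicle difference was called for 58 miRNAs (13.1%), 18 above 0 (4.05%) and 40 below (9.01%). With the percentile over all probes this split was 5 and 35, with that over probes of the 8 arrays 47 and 29, with quantile normalization 18 and 16, and with the total gene signal 1 and 16. The count was 29 without replicate 3 of TSN day 21, 38 and 31 without replicates 2 and 4 of vehicle day 21, and 33 and 32 without replicates 1 and 4 of vehicle day 3. For miR-8093 the TSN difference of 1.53 stood beside 0.31 in vehicle mice, and the gap of 1.22 (SE 0.30) was called (limma adjusted p = 0.0126). It was well above background on 0 of 4 vehicle arrays at either day, so its vehicle difference is bounded by the floor. For miR-1957a it was 1.31 beside 0.19 (gap 1.12, adjusted p = 0.00991), likewise with 0 of 4 vehicle arrays well above background at either day, and with 3 of those of day 21 and 4 of day 3 at the floor. miR-7058-5p had 0.86 beside -0.30 (gap 1.16, adjusted p = 0.0246), with 1 of 4 vehicle arrays well above background at each day, so the sign in vehicle mice rests on dim values. miR-107-3p had -0.59 beside 0.34 (gap -0.93, adjusted p = 0.0126). miR-877-5p was not called in TSN mice (0.22) and was -0.62 in vehicle mice (gap 0.84, adjusted p = 0.0246).

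The 5 gaps below 0 with the smallest p were of miRNAs that rose in vehicle mice and had a TSN difference below 0 that was not called. miR-669f-3p, of the Sfmbt2 intron cluster, was at -3.59, -3.78, -4.08 and -4.28 at TSN day 21, against -3.37, -3.66, -2.82 and -3.43 at TSN day 3, and at -3.22, -2.82, -3.67 and -2.66 at vehicle day 21, against -4.32, -4.09, -4.23 and -3.89 at vehicle day 3. The days did not overlap in vehicle mice and did in TSN mice. Its differences were -0.61 with TSN (not called) and 1.04 with vehicle, and the gap was -1.65 (SE 0.27, limma adjusted p = 0.00329). miR-142a-5p, of blood cells, had a gap of -1.23, miR-130a-3p of -1.31, miR-130b-3p of -1.16 and miR-29b-3p of -1.02 (adjusted p = 0.00905 for each), and in each of these 4 the vehicle difference was called and the TSN difference was not.

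The base composition of the called miRNAs was compared with that of all tested. Sequences were found for 17 of the 20 that rose, 8 of the 11 that fell and 373 of the 444 tested. Median GC content was 58.3% in those that rose, 54.5% in those that fell and 56% over all tested, with a length of 22 bases in each. G made up 42.9% of bases in those that rose and 31.1% in those that fell, beside 36.4% over all. Over 313 miRNAs that were measured on all 8 arrays and had a sequence, Spearman correlations of the difference are given as descriptions. They were 0.04 with GC content, 0.10 with G content and -0.02 with mean level. The miRNAs that rose were dimmer, with a median level of -4.38, than those that fell, at -2.63, beside -4.00 over all tested.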

How the data were processed

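The authors deposited intensity readings per spot and array. According to the headers of these deposited files, background subtraction and spatial detrending were done in Feature Extraction 10.7.1.1. Each array held 58594 spots, 56430 of them not controls, with a median of 15 spots per probe. The authors' own processed table was taken as log2, since it tracked the scaled scanner values on that scale (r of 0.955 to 0.982 over the 24 arrays). Its column medians lay between 4.37 and 4.4, and its scaling and centring are unknown. Deposited flags of other kinds marked spots well above background or as outliers.

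Control and outlier spots were dropped, spots of a probe averaged, and each array scaled to its 75th percentile, taken from the 261 probes that all 24 arrays detected well above background. Next a floor was set (0.0135, or -6.21 in log2). The brightest probe, with the highest mean floored log2 level over the 24 arrays, stood for a miRNA, and ties were broken by probe name. A miRNA was well above background where any of its probes was, on over a 0.5 share of spots. A miRNA shown at the floor can therefore be well above background through another probe. One limma fit (limma 3.58.1 in R 4.3.3, with version 1.17.8 of data.table) covered the 24 arrays in 6 groups, with 18 residual and 1.27 prior degrees of freedom, two-sided. Tested on simulated data with 444 miRNAs, it found 9 of 20 changes of 0.5, 20 of 20 of 1 and 20 of 20 of 2 in log2, with 1 false call. Figures used Python 3.11.15, matplotlib 3.10.9 and pandas 2.3.3. The number of arrays limits the precision.

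The members and lists were chosen with earlier results of these data known, and some lists were drawn up in an earlier session that had seen them. The rule named miR-106b-5p, up to 12 called miRNAs per direction that did not overlap and were measured on all 8 arrays, the 3 smallest adjusted p of each list, the 5 smallest per direction of the TSN minus vehicle difference, and the other arm and neighbours within 10 kb. Replicate numbers did not pair the arrays: deviations of same-numbered day 21 and day 3 arrays correlated at 0.02, 0.14, -0.10 and 0.05. Alternatives covered scaling, background, floor, filter, the arrays fitted and leaving out each array.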

Additional observations from a re-analysis of the deposited data

Results flagged for a closer look

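In 10 of 147 groups of 4 arrays examined for the named miRNAs, 1 array stood apart from the other 3 by a gap whose share of the group's range passed Dixon's 95% critical value; chance gives about 1 in 20. In the values that follow, the array that stood apart is named with its scaled log2 level. At TSN day 21, replicate 2 was low for miR-8090 (-4.07) and high for miR-21a-5p (2.96) and miR-130b-3p (-1.29). Replicate 1 was low for miR-3077-5p (-2.21), and replicate 3 was low for miR-17-5p (-3.55) and miR-451a (5.21). At TSN day 3, replicate 1 was low for miR-5622-3p (-2.97) and miR-143-3p (-4.84), and replicate 3 was high for miR-150-5p (-5.47) and low for miR-6392-3p (-3.92).

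For 15 of the named miRNAs the day 21 minus day 3 difference itself differed between TSN and vehicle mice in limma. Over all 444 tested it did so for 58 (13.1%). Some were named because this gap had 1 of the 5 smallest p in its direction, so the count of 15 followed in part from the choice. The TSN difference minus the vehicle difference was above 0 for miR-8093 (1.22, adjusted p = 0.0126), miR-7058-5p (1.16, 0.0246), miR-1957a (1.12, 0.00991), miR-6915-5p (1.07, 0.0121) and miR-3102-5p (1.00, 0.0493). It was also above 0 for miR-8090 (0.99, 0.0405), miR-1306-3p (0.97, 0.0421), miR-145a-5p (0.96, 0.0145) and miR-877-5p (0.84, 0.0246). miR-6915-5p, miR-8090 and miR-145a-5p were at the floor on every vehicle array, so their vehicle difference is 0 by that floor, and miR-8093 and miR-1957a were well above background on 0 of 4 vehicle arrays at either day, miR-7058-5p on 1 of 4 at each, and miR-1306-3p on 1 of 4 at day 21 and 0 of 4 at day 3. The TSN minus vehicle gap was below 0 for miR-669f-3p (-1.65, 0.00329), miR-130a-3p (-1.31, 0.00905), miR-142a-5p (-1.23, 0.00905), miR-130b-3p (-1.16, 0.00905), miR-29b-3p (-1.02, 0.00905) and miR-107-3p (-0.93, 0.0126). TSN and vehicle arrays lay on different slides, and a slide effect cannot be told apart from the treatment here. The vehicle arrays were also dimmer, and what that does to these gaps was not tested.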

How the results depend on the processing

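Of the count of 31 miRNAs called between the days, 17 were left with the percentile over all probes, 18 with no scaling, 13 with labelling spike-ins, 1 with normexp, 10 with the total gene signal, 17 with the authors' values and 13 with no filter on dim probes (1881 tested). It was 17 and 19 in the fits over the 8 and the 12 TSN arrays. Alternatives chosen after seeing the data gave 42 of 423 tested with the 8 arrays processed by themselves (22 of them among the 31), 16 of 300 without miRNAs at the floor on a vehicle array, and 30 of 433 with the filter on the brightest probe alone, which was the filter first used. The count ran from 13 to 38 on leaving out each array. The count of 58 for the TSN minus vehicle difference became 34 with quantile normalization, 7 with no scaling, 14 with spike-ins, 0 with normexp (limma; 32 at an unadjusted p under 0.05), 17 with the total gene signal, 32 with the authors' values, 35 with the mean of a miRNA's probes and 1 with no filter, and 29 to 70 leaving out arrays. That of 101 in vehicle mice became 57 with quantile normalization, 0 with no scaling (limma; 78 unadjusted), 43 with spike-ins, 1 with normexp, 45 with the total gene signal and 1195 with no filter, and 63 to 101 leaving out arrays (63 without replicate 4 of vehicle day 21). That of 193 for TSN day 21 against day 9 became 108 with all probes, 73 with no scaling, 70 with normexp, 100 with the total gene signal and 128 with the authors' values, and 163 to 216 leaving out arrays. With the replicate block the counts were 25, 40, 94 and 191 in the same order. The cause was not tested, except that fewer miRNAs or arrays enter some of these settings by construction.

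No scaling and normexp moved the median of all tested miRNAs by 0.26 and -0.17, and single values under them are relative to it. With the mean of a miRNA's probes miR-7058-5p, miR-7039-5p, miR-3968 and miR-6934-5p were at 0.43, -0.43, 0.39 and 0.37. On the brightest probe they were at 0.86, -0.86, 0.79 and 0.75. miR-542-5p, miR-294-5p, miR-712-5p, miR-7020-5p and miR-6401 were at -0.26, -0.42, -0.53, 0.39 and 0.76 with the mean. On the brightest probe these were at -1.05, -1.11, -1.02, 0.73 and 1.34. Of these, miR-7020-5p lost the call with the mean (limma adjusted p = 0.101). The mean gave larger differences for miR-30a-5p, miR-30d-5p and miR-30e-5p, at 1.08, 0.89 and 0.87. With the total gene signal the sign turned for miR-3968 (-5.49), miR-6934-5p (-2.66), miR-300-5p (-3.50), miR-30a-3p (-1.47), miR-712-5p (0.14), miR-133a-3p (0.60), miR-181a-5p (0.29), miR-29c-3p (0.019) and, in the TSN minus vehicle difference, miR-669f-3p (2.30). miR-29c-3p also turned with the percentile over probes of the 8 arrays (0.041), normexp (0.079) and the 8 arrays alone (0.041). With the percentile over all probes it turned for miR-106b-5p (-0.017), miR-26b-5p (-0.0081) and miR-30c-1-3p (-0.041), and for the last with quantile normalization (-0.073). Leaving out arrays, values that crossed 0 ran from -0.078 to 0.13 for miR-106b-5p, -0.098 to 0.14 for miR-26b-5p, -0.13 to 0.026 for miR-29c-3p, -0.039 to 0.059 for miR-30c-1-3p, -0.035 to 0.14 for miR-30c-5p, -0.040 to 0.34 for miR-370-3p and -0.23 to 0.019 for miR-486b-3p. The array measures ran from 7.75 to 35.1 miRNAs well above background, 0.10 to 0.45 in the log2 75th percentile, 0.21 to 0.34 in the log2 labelling spike-ins, 0.07 to 0.11 in the log2 hybridisation spike-ins and -2.67 to -1 in background. Signal over background limits the dimmest miRNAs: 9 of the 31 had a value at the floor among the 8 arrays.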
